A study of Mus musculus with 9 samples.

Results

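Insulin-like growth factor 1 (Igf1) and colony-stimulating factor 1 (Csf1) are secreted growth factors made by microglia, the resident macrophages of the brain. They are described here with their receptors and close partners, 7 genes in all: the ligands Igf1 and Csf1, the receptors Igf1r, Csf1r, Csf2ra and Csf2rb, and the binding protein Igfbp4. Each gene had exactly 1 probe set annotated to it alone, out of 19938 genes with such a probe set, and all 7 were among the 10795 genes bright enough to be tested. Igf1 was chosen by its measured values on these same arrays, where its level in R47H mice matched that in CV mice. Its values between genotypes are therefore a description without a test. The other 6 genes, which were tested, belong to the IGF1 and CSF1 systems or encode chains of the receptor for the cytokine GM-CSF. They too were listed with earlier results of these data known.

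IGF1 binds the tyrosine kinase receptor IGF1R, which signals through insulin receptor substrates, PI3 kinase and AKT, and a family of binding proteins, IGFBP4 among them, holds the ligand in check. Microglia that gather at amyloid plaques or that support developing myelin are known to make Igf1. CSF1 and IL-34 both act on CSF1R, the receptor kinase on which microglia depend for survival. CSF2RA binds the cytokine GM-CSF, and CSF2RB is the beta chain that the receptors for GM-CSF, IL-3 and IL-5 share, which signals through JAK2 and STAT5.

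Expression was measured on 9 microarrays, 1 for each mouse, in CD45+ CD11b+ cells sorted from the brain at 8.5 months. Every animal had the 5XFAD transgenes, a model of amyloid deposition in which the transgenes are expressed in neurons. Every animal was also without mouse TREM2, the microglial receptor for lipids. The 3 mice called CV expressed the common variant of human TREM2, the 3 called R47H expressed the R47H variant, and the 3 called KO expressed no human TREM2. Mouse 1 of each genotype was female and mice 2 and 3 were male, so each group holds 3 mice with 1 female. There was no group with intact mouse TREM2 and none without 5XFAD. Which promoter drives human TREM2 the sources used here do not give.

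Values are log2 probe set values as deposited, in which a difference of 1 is a doubling. Arrays correlated at 0.981 to 0.990. The mouse Trem2 probe set lay between 7.05 and 7.31 in all 9 mice, and whether it lies in the deleted part of the gene is not known here, so it checks no label. Microglia markers were high in every mouse, with Tmem119 at 11.52 to 12.01 and Cx3cr1 at 12.24 to 12.43. Neutrophil markers, by contrast, varied widely, and within KO alone the calprotectin subunit S100a8 ran from 7.84 in mouse 1 to 12.74 in mouse 3. The summed level of the 13 neutrophil markers (log2 of the sum) was 9.76 to 14.20 in KO, 10.70 to 12.50 in R47H and 13.52 to 14.24 in CV. Of those 13, 9 were bright enough to be tested. The 8 oligodendrocyte markers summed to 9.34 to 10.15 in KO, 10.40 to 10.82 in R47H and 9.28 to 9.61 in CV, and all 8 were tested. Fewer cells of a type and less RNA per cell cannot be told apart in such sorted pools.

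Igf1 was lowest in KO. There its probe set (10365559) read 8.04, 7.60 and 7.52 in mice 1, 2 and 3, in R47H 9.06, 8.35 and 8.27, and in CV 8.66, 8.19 and 8.37. All 6 mice with human TREM2 lay above all 3 KO mice, while the R47H and CV mice overlapped. Among all tested genes 14% did not overlap between CV and KO and 7.11% between R47H and KO. The means were 7.72 ± 0.28 in KO, 8.41 ± 0.24 in CV and 8.56 ± 0.43 in R47H (SD, n = 3). Set in order, KO stood apart from CV, and CV and R47H, the next neighbours, differed by less than their spread. The limma estimates were 0.69 ± 0.09 (SE) for CV minus KO, 1.61-fold, 0.84 ± 0.09 for R47H minus KO, 1.79-fold, and 0.15 ± 0.09 for R47H minus CV.

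The match between R47H and CV was not the same in the female and the male mice. Between the females, Igf1 was 0.40 higher in R47H than in CV, and between the males the mean difference was 0.03, with the 4 pairings of males running from -0.10 to 0.16. For R47H minus KO the female difference was 1.03 and the male mean 0.75. For CV minus KO the values were 0.63 and 0.72. There was 1 female in each genotype, so whether these differences depend on sex was not tested.

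**Figure D1:**
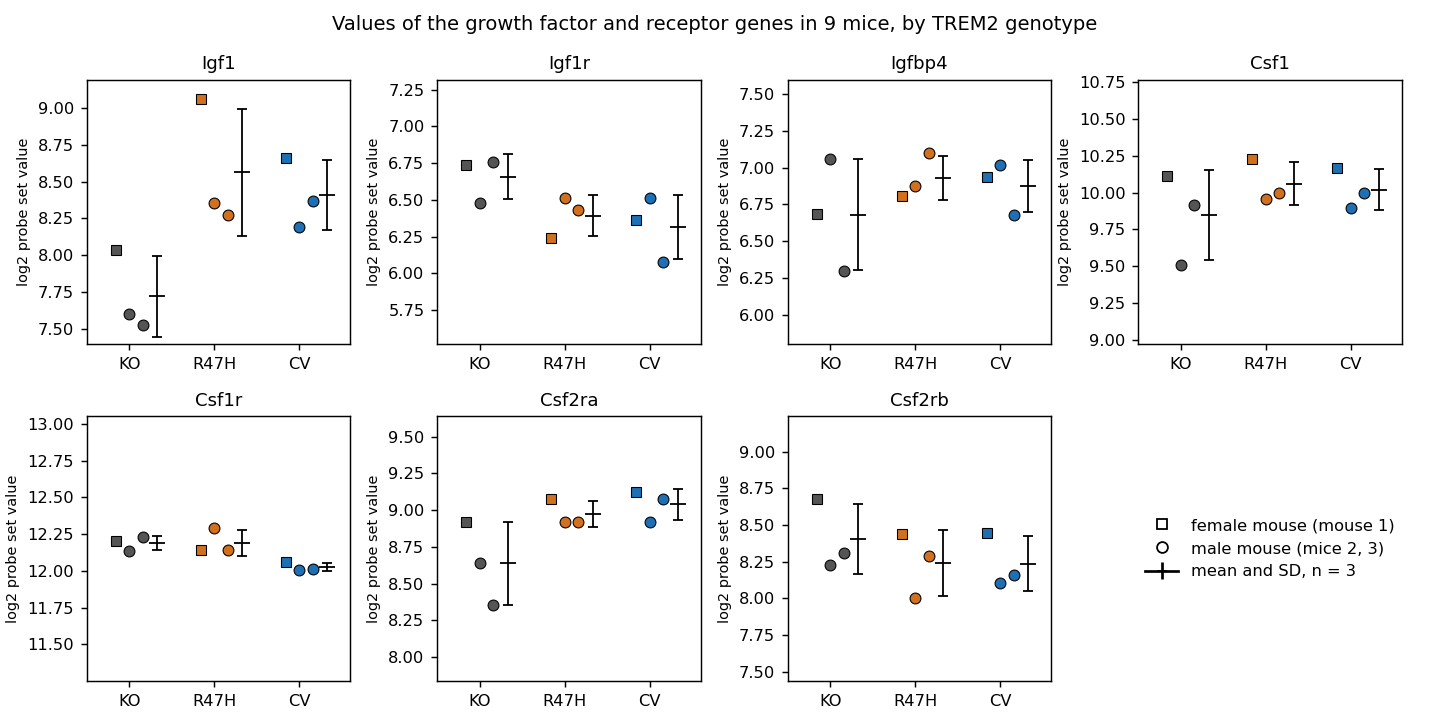
Log2 probe set values (y axis) of the 7 genes in each mouse, by TREM2 genotype (x axis), with squares for females, circles for males and bars for the mean and SD of 3 mice. Every panel spans the same 1.8 log2 units; the 3 KO mice lie below all others for Igf1, and the 3 CV mice lie below all others for Csf1r.

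Igf1 was also the gene of the 7 that varied most with sex, a contrast its choice did not use. The female was the highest mouse in each of the 3 genotypes, and the estimate for female minus male was 0.54 ± 0.08, 1.45-fold. It did not pass over all genes (limma adjusted p = 0.089, Benjamini-Hochberg over 10795 genes). Csf1, Csf2ra and Csf2rb were likewise highest in the female of each genotype, which 8.28% of all tested genes were. Their estimates were 0.29 ± 0.09 for Csf1, 0.23 ± 0.09 for Csf2ra and 0.34 ± 0.07 for Csf2rb, with limma adjusted p of 0.322, 0.388 and 0.2. Over all 7 genes 0 were called by limma between the sexes and 4 had an unadjusted p under 0.05, against 0.0648% called and 11% with such an unadjusted p among all tested genes. Igf1r, Igfbp4 and Csf1r stood at -0.02 ± 0.11, -0.03 ± 0.16 and -0.0023 ± 0.062. Each female is also mouse 1 of its genotype, so sex and mouse number cannot be told apart for these mice. The 9 tested neutrophil markers had negative differences in female minus male (median -1.57), 0 of them called by limma and 3 at an unadjusted p under 0.05. Once a neutrophil score was a covariate the sex estimate of Igf1 was 0.51 ± 0.11 (limma adjusted p = 0.425) and that of Csf2ra 0.0983 ± 0.082, and without KO mouse 1 that of Csf2ra was 0.14.

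Csf1 itself was not called in any comparison between genotypes. Its values were 10.11, 9.51 and 9.91 in KO, 10.23, 9.96 and 9.998 in R47H, and 10.17, 9.90 and 9.998 in CV. KO mouse 2 was the lowest of all 9, and the 3 groups overlapped. The difference was 0.18 ± 0.105 for CV minus KO (95% interval -0.06 to 0.41, limma adjusted p = 0.532) and 0.22 ± 0.105 for R47H minus KO (-0.02 to 0.45, limma adjusted p = 0.907). CV minus KO fell to 0.05 when KO mouse 2 was left out and to -0.0081 with the neutrophil score as a covariate. R47H minus KO was 0.09 without KO mouse 2. R47H minus CV was 0.04 ± 0.105, with an interval of -0.20 to 0.28, and 0.23 ± 0.13 once the neutrophil score was a covariate.

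The promoters of Igf1, Csf1 and Csf2ra are shown because these 3 genes had positive differences from KO in both groups with human TREM2 and their highest value in the female of each genotype. The sequences are from RefSeq (GRCm38.p6), run 5′ to 3′ on the strand of the gene, and span 250 bases before to 50 after the listed start. Capitals mark matches on either strand to GAGGAA, a core of sites for the macrophage factor PU.1. They also mark matches to a form of the NF-kB site (GGGA, any 3 letters, then TCC). The last pattern is TGANTCA, a loose form of the AP-1 site, which itself has G or C at the centre. All were picked after the sequences were seen. RefSeq entries of this kind were matched for 5 of the 7 genes, and the other 2 are Csf1r and Csf2rb. The start listed for Igf1 is not the first base of the gene. Its window lies inside the gene, which spans chr10:87858265-87937047.
Igf1, chr10:87860861-87861160, plus strand: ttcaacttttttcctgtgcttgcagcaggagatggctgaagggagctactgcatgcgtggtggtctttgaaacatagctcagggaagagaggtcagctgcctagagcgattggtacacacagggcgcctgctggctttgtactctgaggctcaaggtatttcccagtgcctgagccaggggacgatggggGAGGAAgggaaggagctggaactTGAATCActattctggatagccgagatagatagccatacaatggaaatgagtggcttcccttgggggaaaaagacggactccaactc
Csf1, chr3:107760420-107760719, minus strand: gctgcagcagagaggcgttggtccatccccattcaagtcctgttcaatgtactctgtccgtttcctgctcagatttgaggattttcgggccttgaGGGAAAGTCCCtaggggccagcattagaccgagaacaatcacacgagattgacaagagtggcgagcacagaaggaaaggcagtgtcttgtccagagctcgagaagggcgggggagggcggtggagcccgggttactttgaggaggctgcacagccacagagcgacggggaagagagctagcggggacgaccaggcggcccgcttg
Csf2ra, chr19:61228369-61228668, minus strand: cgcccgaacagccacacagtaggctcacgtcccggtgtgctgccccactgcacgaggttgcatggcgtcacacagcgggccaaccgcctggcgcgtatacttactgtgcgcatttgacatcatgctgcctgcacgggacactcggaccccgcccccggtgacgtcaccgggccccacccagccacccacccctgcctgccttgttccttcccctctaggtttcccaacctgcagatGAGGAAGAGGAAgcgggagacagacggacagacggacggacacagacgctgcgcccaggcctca
The Igf1 window held 1 GAGGAA and 1 TGANTCA. The latter is read there as TGAATCA, with A at the centre, so it is not the AP-1 site itself. The Csf2ra window held 2 GAGGAA in a row, 14 and 8 bases before the start, and the Csf1 window held 2 overlapping matches to the NF-kB form, 1 on each strand. Among 32851 promoter windows of 300 bases, GAGGAA was found in 28.3%, the NF-kB form in 4.59% and TGANTCA in 7.81%. These are matches of letters and no sites were measured.

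Of the receptors, Csf2ra, the GM-CSF receptor alpha chain, had the largest estimate. Its probe set (10468893) read 8.92, 8.64 and 8.35 in KO, 9.08, 8.92 and 8.92 in R47H and 9.12, 8.92 and 9.08 in CV. KO mice 2 and 3 lay below all others, and the value 8.92 was shared to the last deposited digit by 4 arrays, KO mouse 1, R47H mice 2 and 3 and CV mouse 2. Among all 35556 probe sets 17.5% had a value shared by at least 4 arrays, so such ties are a general property of the table. CV minus KO was 0.40 ± 0.10, 1.32-fold (limma adjusted p = 0.124), and R47H minus KO 0.33 ± 0.10, 1.26-fold (limma adjusted p = 0.581). Neither passed the threshold of 0.05. R47H minus CV was -0.07 ± 0.10 (95% interval -0.30 to 0.16), so that the interval allows a difference in either direction, and it was -0.29 ± 0.11 with the neutrophil score as a covariate (limma adjusted p = 0.739). Leaving out KO mouse 3 gave 0.29 for CV minus KO and 0.22 for R47H minus KO, and with the neutrophil score as a covariate CV minus KO was 0.61 ± 0.11 (limma adjusted p = 0.0926).

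The shared beta chain did not follow the alpha chain. Csf2rb read 8.68, 8.23 and 8.31 in KO, 8.44, 8.001 and 8.29 in R47H and 8.45, 8.11 and 8.16 in CV, and the groups overlapped. Its differences from KO were -0.17 ± 0.09 in CV and -0.16 ± 0.09 in R47H (limma adjusted p = 0.455 and 0.907), and R47H minus CV was 0.0054 ± 0.085 (95% interval -0.19 to 0.20). R47H minus KO was -0.0909 without R47H mouse 2 and -0.25 without R47H mouse 3. The paralog Csf2rb2, which neighbours it on the same chromosome and in mice encodes a beta chain for IL-3 alone, stood at -0.01 ± 0.09 and 0.02 ± 0.09 against KO. These 2 genes are close relatives, and probe sets of close relatives can share signal, which was not tested. Il3ra, the alpha chain for IL-3, lay at 0.35 ± 0.09 in CV minus KO and 0.25 ± 0.09 in R47H minus KO (limma adjusted p = 0.124 and 0.726). Csf3r, the receptor for the neutrophil growth factor G-CSF, lay at 0.02 ± 0.14 in CV minus KO, beside a median of 2.55 for the 9 tested neutrophil markers.

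Csf1r varied least of the 7 genes over the 9 mice and was lowest in CV. It read 12.20, 12.14 and 12.23 in KO, 12.14, 12.29 and 12.14 in R47H and 12.06, 12.01 and 12.01 in CV. All 3 CV mice lay below the other 6, and KO and R47H overlapped. The means were 12.19 ± 0.05 in KO, 12.19 ± 0.09 in R47H and 12.03 ± 0.03 in CV (SD, n = 3). CV minus KO was -0.16 ± 0.07, 1.12-fold lower, and R47H minus CV 0.17 ± 0.07, and neither passed (limma adjusted p = 0.376 and 0.397). R47H minus KO was 0.0023 ± 0.071 (95% interval -0.16 to 0.16). Csf1r was the 1 gene of the 6 whose groups did not overlap in these 2 comparisons, and there was 0 of the 6 for R47H minus KO. Among all tested genes 14% did not overlap between CV and KO, 7.11% between R47H and KO and 14.9% between R47H and CV. Of the 11 tested microglia markers other than Trem2, 9 had negative differences in CV minus KO (median -0.13) and 10 positive ones in R47H minus CV (median 0.15). Over all tested genes 45% were positive in CV minus KO and 53.4% in R47H minus CV. Limma called 0 of the 11 in either, against 1.21% and 0.797% of all tested genes. At an unadjusted limma p under 0.05 there were 6 and 4, against 13.2% and 12.4%. The lectin gene Siglech stood at -0.35 ± 0.07 and Tmem119 at -0.27 ± 0.08 in CV minus KO. The genes of the 2 sorting markers went in opposite directions, with no overlap in either comparison. Itgam, which encodes CD11b, stood at -0.30 ± 0.06 in CV minus KO and 0.225 ± 0.06 in R47H minus CV. Ptprc, which encodes CD45, stood at 0.32 ± 0.09 in CV minus KO and -0.24 ± 0.09 in R47H minus CV. The 9 tested neutrophil markers had positive differences in CV minus KO, and the CV and KO mice overlapped for each. Limma called 0 of them, and 9 had an unadjusted p under 0.05, against 13.2% of all tested genes. With their score as a covariate Csf1r stood at -0.19 ± 0.105 in CV minus KO, and the part of other cells in this difference was not tested further. The summed level of the 11 microglia markers (log2 of the sum) was 14.81 to 14.87 in CV, 14.94 to 15.04 in KO and 14.95 to 15.0005 in R47H. R47H minus CV for Csf1r was 0.11 without R47H mouse 2.

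**Figure D2:**
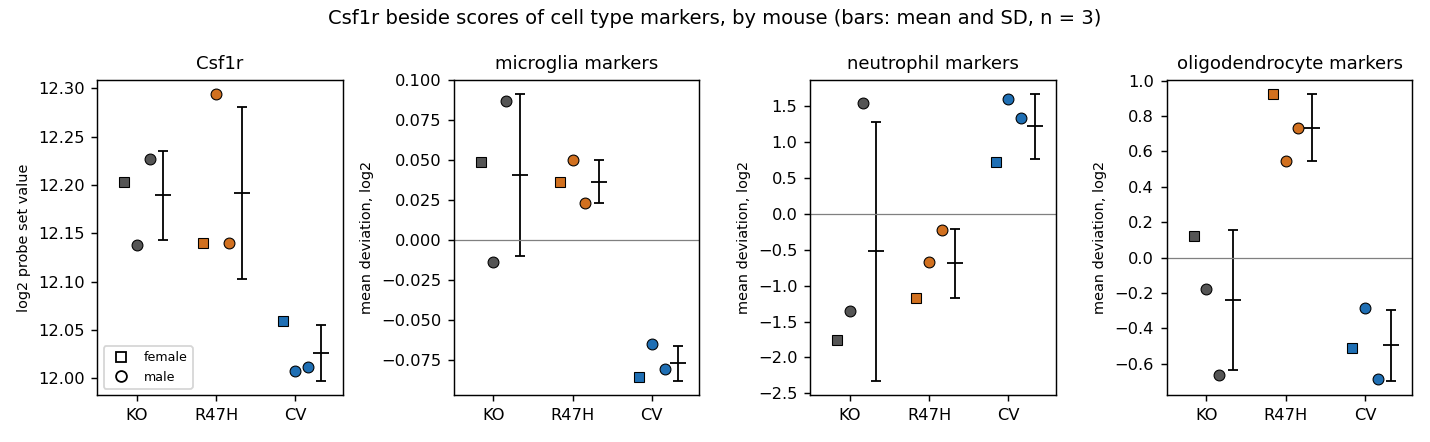
Csf1r (log2 probe set value) and the scores of microglia, neutrophil and oligodendrocyte markers (mean deviation of the markers from their means over 9 mice, log2) in each mouse by genotype, with squares for females, circles for males and bars for the mean and SD of 3 mice. The CV mice are lowest for Csf1r (12.01 to 12.06) and for the microglia score (12 markers, Trem2 included), and KO mouse 3 lies with the CV mice on the neutrophil score. The y axes differ between panels.

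Igf1r lay in the opposite direction to its ligand. The receptor read 6.74, 6.48 and 6.76 in KO, 6.24, 6.51 and 6.43 in R47H and 6.36, 6.51 and 6.08 in CV. KO mice 1 and 3 were the highest of the 9 while KO mouse 2 lay among the others, so the groups overlapped. CV minus KO was -0.34 ± 0.13 and R47H minus KO -0.27 ± 0.13, which did not pass (limma adjusted p = 0.306 and 0.907). When single mice were left out CV minus KO ran from -0.45 to -0.21, the latter without CV mouse 3, and R47H minus KO from -0.36 to -0.16, the latter without R47H mouse 1. R47H minus CV was 0.08 ± 0.13 (95% interval -0.22 to 0.38), and 0.20 ± 0.19 once the neutrophil score was a covariate.

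Igfbp4, which binds IGF1 and limits its access to the receptor, had the widest spread of the 7 within KO. Its values were 6.68, 7.06 and 6.30 in KO, 6.81, 6.88 and 7.10 in R47H and 6.93, 7.02 and 6.68 in CV. KO mouse 3 was the lowest of all and KO mouse 2 the second highest. CV minus KO was 0.20 ± 0.18 and R47H minus KO 0.25 ± 0.18 (limma adjusted p = 0.702 and 0.945), and without KO mouse 3 these were -0.02 and 0.03, against 0.40 and 0.45 without KO mouse 2. R47H minus CV was 0.05 ± 0.18, with an interval of -0.36 to 0.47, the least precise of the 7. With the neutrophil score as a covariate CV minus KO was 0.57 ± 0.19 (limma adjusted p = 0.537).

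Counted together, 0 of the 6 genes other than Igf1 were called in any of the 3 comparisons between genotypes by limma. Over all tested genes 1.21% were called for CV minus KO, 0.0834% for R47H minus KO and 0.797% for R47H minus CV. At an unadjusted limma p under 0.05 the 6 genes gave 3 for CV minus KO (Igf1r, Csf1r and Csf2ra), 1 for R47H minus KO (Csf2ra) and 1 for R47H minus CV (Csf1r), against 13.2%, 5.68% and 12.4% of all tested genes. CV and R47H were compared with the same KO mice, so their differences from KO share that group's error. The median difference over these 6 genes was 0.0063 for CV minus KO, 0.11 for R47H minus KO and 0.05 for R47H minus CV, and over all tested genes it was -0.02, -0.0011 and 0.01.

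**Figure D3:**
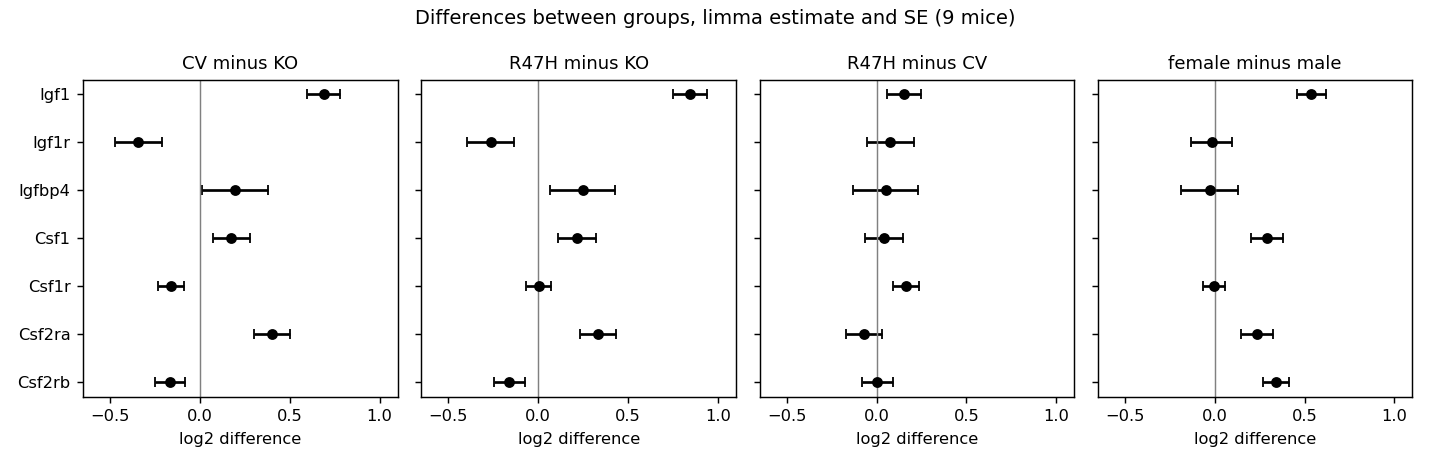
Log2 differences between groups (x axis) with their limma standard errors for the 7 genes (y axis), in a panel for each of the 3 genotype comparisons and 1 for the sexes. Igf1 stands furthest from 0 in the panels against KO, at 0.69 and 0.84, and the 7 estimates for R47H minus CV lie between -0.07 and 0.17.

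The wider pathways showed no called gene. Of 90 further genes in 5 lists, 85 had a probe set of their own and 62 were tested, of which limma called 0 in each of the 3 genotype comparisons. At an unadjusted limma p under 0.05 there were 12 (19.4%) for CV minus KO, 3 (4.84%) for R47H minus KO and 6 (9.68%) for R47H minus CV, against 13.2%, 5.68% and 12.4% of all tested genes. The share lay above that of all genes for CV minus KO and below it for the comparisons with R47H, and these gaps were not tested. The medians over the 62 genes were 0.01, -0.0082 and -0.0022.

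Among IGF ligands, receptors and binding proteins 4 of 16 were bright enough to test. Igfbp7, a binding protein of low affinity, read 5.64, 5.75 and 5.72 in KO, 5.72, 5.59 and 5.75 in R47H and 5.96, 6.17 and 5.93 in CV. All CV mice lay above the other 6, by 0.32 ± 0.09 against KO (limma adjusted p = 0.142), while R47H minus CV was -0.33 ± 0.09 (limma adjusted p = 0.16). Of all tested genes 14% did not overlap between CV and KO and 14.9% between R47H and CV. Igfbp6 stood at -0.36 ± 0.21 and -0.31 ± 0.21 against KO in CV and R47H, and the insulin receptor Insr at -0.03 ± 0.11 and -0.16 ± 0.11. Igf2r, which clears IGF2 and carries enzymes to the lysosome, fell under the brightness limit of 5.31 and was not tested. It read 4.83, 4.86 and 5.04 in KO, 4.99, 4.88 and 5.03 in R47H and 5.96, 5.20 and 5.33 in CV, so all 3 CV mice lay above the other 6.

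In the insulin and IGF receptor signalling list 20 of 25 genes were tested, and their differences ran from -0.22 to 0.22 in CV minus KO and from -0.14 to 0.16 in R47H minus KO. The smallest p for CV minus KO belonged to the kinase Akt2 (-0.22 ± 0.08, limma adjusted p = 0.305) and to Inpp5d, the phosphatase SHIP1 (-0.18 ± 0.07, limma adjusted p = 0.316). Rheb, which activates mTOR, stood at -0.26 ± 0.10 in R47H minus CV (limma adjusted p = 0.343).

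Of 14 colony-stimulating factors and related receptors 6 were tested. Il34, the other ligand of CSF1R, was under the brightness limit with a mean of 4.999 over the 9 mice, and Csf2, which encodes GM-CSF, lay at 3.00 to 3.50. The genes tested apart from Il3ra differed from KO by -0.06 to 0.12 in CV. In the list of CSF1 receptor signalling and lineage factors 17 of 19 were tested. Ets2, a transcription factor activated downstream of CSF1R, read 9.92, 9.95 and 9.91 in CV, 9.17, 9.10 and 9.76 in KO and 8.95, 9.62 and 9.62 in R47H. CV minus KO was 0.58 ± 0.18 (limma adjusted p = 0.208), and R47H minus CV was -0.53 ± 0.18 (limma adjusted p = 0.281). KO mouse 3, R47H mouse 2 and R47H mouse 3 were closer to the CV mice than the other KO and R47H mice were. The lineage factor Spi1, which encodes PU.1, stood at 0.09 ± 0.08 in R47H minus KO.

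The JAK-STAT5 list had 15 tested genes of 16 and held 7 of the 12 with an unadjusted limma p under 0.05 for CV minus KO, where 13.2% of all tested genes had such a p. The neutrophil markers had a median of 2.55 in that comparison, and their part in these values was not tested. Pim1, a kinase gene induced through STAT5, read 8.70, 8.61 and 8.76 in CV against 8.24, 8.38 and 8.29 in KO and 8.40, 8.22 and 8.52 in R47H. All CV mice lay above the other 6, by 0.39 ± 0.09 against KO (limma adjusted p = 0.104), and R47H minus CV was -0.31 ± 0.09 (limma adjusted p = 0.227). Such a lack of overlap was seen in 14% of all tested genes between CV and KO and in 14.9% between R47H and CV. Bcl2l1, which encodes the survival protein BCL-XL, stood at 0.21 ± 0.07 in CV minus KO and -0.24 ± 0.07 in R47H minus CV. Irf4 lay at -0.31 ± 0.11 and -0.26 ± 0.11 against KO in CV and R47H, and Stat5a at -0.21 ± 0.08 and -0.22 ± 0.08. The rest of the 7 in CV minus KO were Cish at 0.29 ± 0.12, Socs3 at -0.22 ± 0.085 and Jak1 at -0.20 ± 0.075. The median of the list in that comparison was 0.01.

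**Figure D4:**
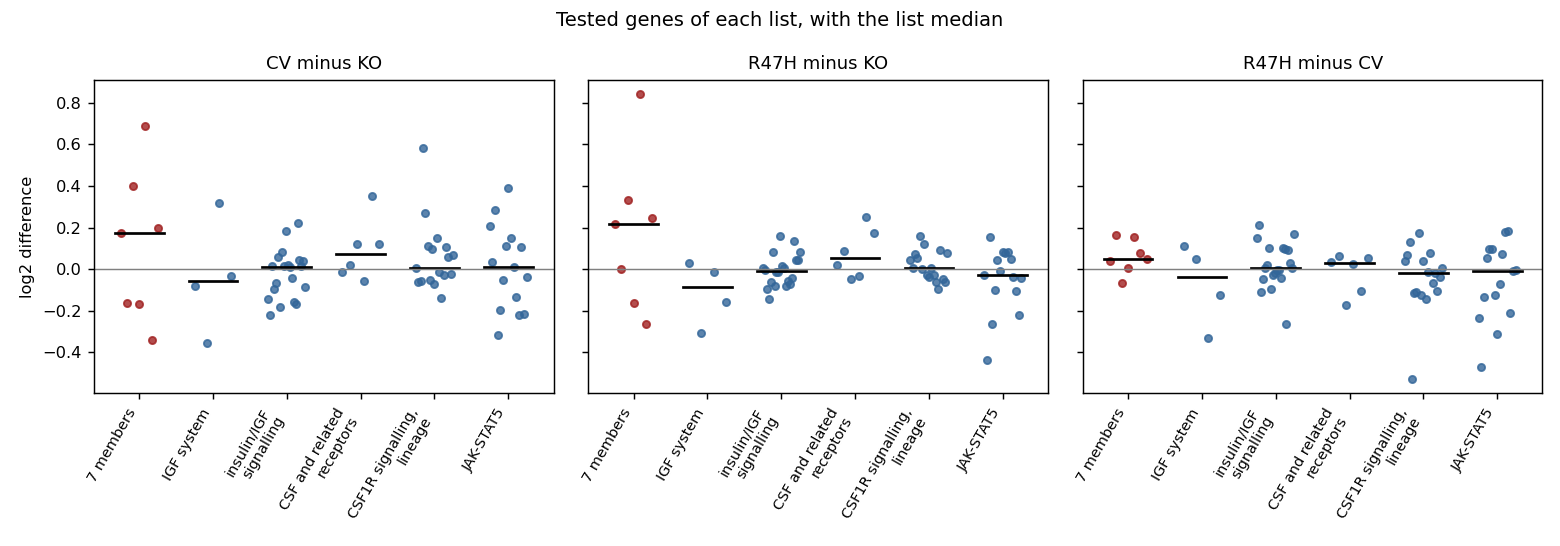
Log2 differences (y axis) of the tested genes of each list (x axis), with the list median as a bar, for the 3 comparisons between genotypes. Igf1 is the highest red point in the panels against KO, at 0.69 and 0.84, and Ets2 is the highest blue point in CV minus KO, at 0.58.

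The genes closest to Igf1 over the 9 mice were found by the root-mean-square difference between values centred on each gene's mean, among 1017 genes that varied at least 0.5 times as much as Igf1. They were Fabp3, a fatty acid carrier (0.111), the prion protein gene Prnp (0.137), the myosin Myo1e (0.145), the kinesin Kif1a (0.176) and Mamdc2 (0.181), while Igf1 itself had an SD of 0.48 over the 9 mice. These genes were picked for closeness to Igf1 on the same arrays, so their likeness to it between genotypes follows from that choice. Fabp3 averaged 6.70 in KO, 7.66 in R47H and 7.60 in CV, and Myo1e 7.50, 8.21 and 8.23. Prnp and Kif1a were higher in R47H than in CV, at 6.13 against 5.86 and 6.48 against 6.32, and Mamdc2 was lower, at 5.85 against 6.05. The 8 oligodendrocyte markers had a median of 0.97 in R47H minus KO, -0.23 in CV minus KO and 1.18 in R47H minus CV. Limma called 1, 0 and 5 of them, against 0.0834%, 1.21% and 0.797% of all tested genes. At an unadjusted limma p under 0.05 there were 8, 1 and 8, against 5.68%, 13.2% and 12.4%. The part of these markers in the values of Igf1 and its closest genes was not tested.

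For Csf2ra the closest genes were Tmem120b (0.0743), the carboxypeptidase Cpd (0.0745), the transcription factor Nfil3 (0.0830), Dnase1l1 (0.0867) and Gnptab, which tags lysosomal enzymes (0.0914). They too were picked for closeness, and each had its lowest value in KO mouse 3, as Csf2ra did. For Csf1 they were Fgf1 (0.0624), Spag7 (0.0774), the chaperonin Hspe1 (0.0790), Aplp2 (0.0800) and Suz12 (0.0803), and for Csf2rb they were Nudt9 (0.0675), Mrpl14 (0.0696), Calhm6 (0.0740), Psma8 (0.0762) and Lap3 (0.0842).

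**Figure D5:**
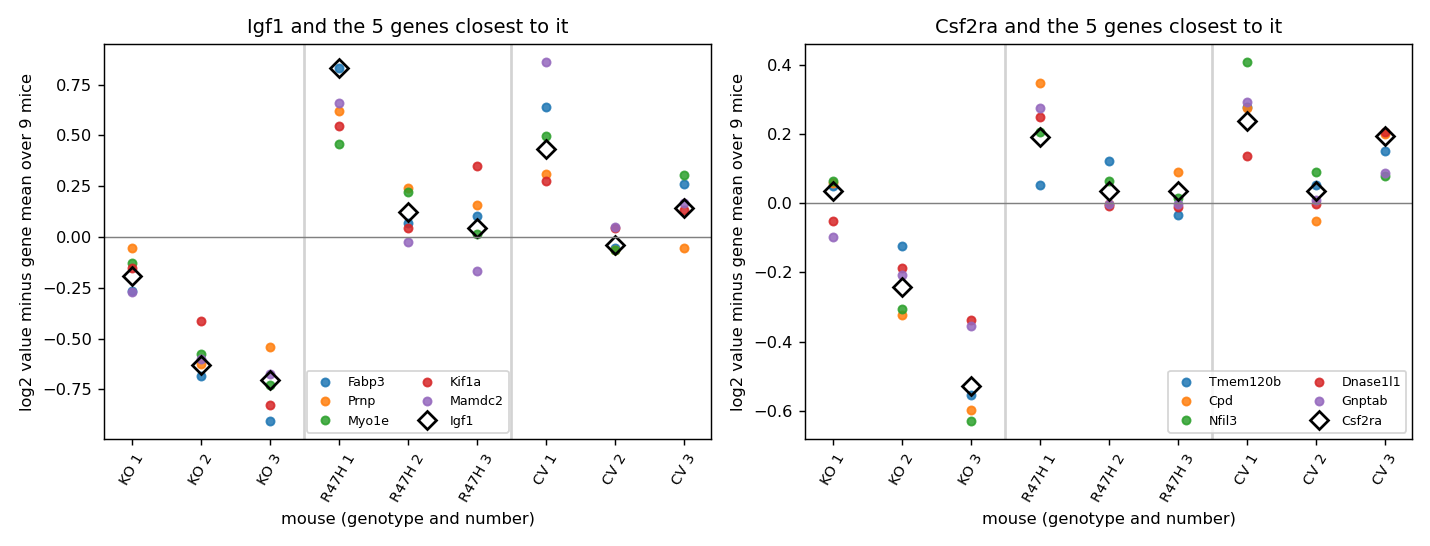
Log2 values minus each gene's mean over 9 mice (y axis) for Igf1 (left) and Csf2ra (right) as open diamonds and the 5 genes closest to each as filled circles, by mouse (x axis, genotype and number; mouse 1 is female). Igf1 and its 5 closest genes, which were picked for their likeness to it, are all below 0 in the 3 KO mice. All are above 0 in R47H mouse 1 and CV mouse 1.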

How the data were processed

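The deposited table held 35556 probe sets with 9 values each, 1 from each array and mouse. Its scale was taken as log2 from its range of 1.31 to 13.9, and the sources used here do not give the authors' background correction, normalization or summarisation. Names came from the platform's annotation, and probe sets with a single symbol were used, the one with the highest mean standing for its gene. Genes with a mean of at least 5.31 (the 50% point over probe sets) were tested (10795 of 19938). Models with genotype and sex were fitted to all 9 arrays with limma 3.58.1 in R 4.3.3 (5 residual and 3.73 prior degrees of freedom), two-sided, with Benjamini-Hochberg adjustment over all tested genes at 0.05. SE and 95% intervals come from these models, and the number of arrays limits the precision. With 3 against 3 a permutation test cannot go below 0.1.

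The members, the 5 pathway lists and the 10 marker lists were chosen with earlier results of these data known. Named pathway genes are from the 3 smallest p per list and comparison, with the relatives Csf2rb2, Insr, Igf2r and Il34. The closest genes to Igf1, Csf1, Csf2ra and Csf2rb are the 5 with the smallest root-mean-square difference, predicted genes left out. Other genes named from the lists were chosen after their values were seen. The neutrophil score is the mean deviation of the 9 tested neutrophil markers from their means over the 9 arrays, as used for the covariate; plotted scores use all markers with a probe set. The median differences of the remaining marker lists, for CV minus KO and then R47H minus KO, were -0.33 and 0.14 for border macrophages, 0.70 and -0.29 for monocytes, and 0.09 and -0.05 for dendritic cells. They were -0.21 and 0.72 for astrocytes, -0.13 and -0.20 for endothelial and mural cells, and -0.06 and 0.02 for the 1 tested lymphocyte marker, and 0 of 7 neuron markers were tested. On simulated data for CV minus KO (10795 genes, 50 changed per size) the model recovered 18% of changes of 0.3, 72% of 0.5 and 98% of 0.8 on the log2 scale. It called 155 genes in all, of which 11 were unchanged. The changes were put in random genes of the CV mice. The noise used the SD of each gene as shrunk by limma towards a common value. It was independent for each gene, without a sex effect or variation shared between genes. Recovery for these 7 genes on the real arrays may therefore differ. The alternatives were the sex term, a replicate block, the groups in the fit, males alone, eBayes options, the brightness filter, probe set choice, quantile normalization, the neutrophil score and leaving out each mouse.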

Additional observations from a re-analysis of the deposited data

How the results depend on the processing

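Across the alternatives run, limma called 0 of the 6 members other than Igf1 and 0 of the 62 pathway genes in each genotype comparison, and 0 of the 7 members between the sexes. Igf1 ran from 0.61 to 0.76 for CV minus KO and from 0.74 to 0.90 for R47H minus KO when single mice were left out, and R47H minus CV from 0.05 to 0.23. With males only R47H minus CV was 0.0327 for Igf1, against 0.15 with all mice. The sex estimate of Igf1 ran from 0.43 to 0.61 over single removals, and its lowest adjusted p was 0.0691. Some estimates changed sign, and not all of these were near 0. With the main settings Csf1 and Igfbp4 in CV minus KO were 0.18 and 0.20. With the neutrophil score as a covariate Csf1 in CV minus KO was -0.0081, Igfbp4 in R47H minus CV -0.335, and Igf1r and Csf1r between the sexes 0.0629 and 0.0155. Under quantile normalization Csf1r in R47H minus KO was -0.0281 and Csf2rb in R47H minus CV -0.0032. The cause was not tested. Over single removals Igfbp4 ran from -0.017 to 0.396 in CV minus KO, from -0.0623 to 0.125 in R47H minus CV and from -0.136 to 0.0709 between the sexes. Csf1r ran from -0.0532 to 0.0396 in R47H minus KO and from -0.0281 to 0.035 between the sexes, Igf1r from -0.0559 to 0.186 in R47H minus CV and from -0.0834 to 0.0919 between the sexes, and Csf2rb from -0.0806 to 0.0756 in R47H minus CV. Same-numbered mice of different genotypes had correlated deviations over 0.1 in 7 of 9 pairs (lowest -0.04), short of the 9 of 9 that were required to take the number as a pairing. The pairs of mice numbered 1 stood at 0.32 to 0.36. Some differently numbered mice of different genotypes reached values over 0.1 too (KO mouse 3 with R47H mouse 2 at 0.203 and with CV mouse 2 at 0.214). Others were negative, down to -0.39 for KO mouse 3 with CV mouse 1. With the mouse number as a replicate block Csf2ra in CV minus KO was 0.40 (limma adjusted p = 0.137), and 0 members were called in each genotype comparison. Over all tested genes the calls for CV minus KO were 131, and 20 to 172 over the alternatives. They were 9, and 0 to 15, for R47H minus KO, and 86, and 1 to 132, for R47H minus CV. The lowest counts of CV minus KO and R47H minus CV, 20 and 1, were with males only, the highest, 172 and 132, without KO mouse 3, and the 0 arose with males only and without R47H mouse 3. Without CV mouse 1 CV minus KO had 59 calls, and without R47H mouse 1 or CV mouse 3 R47H minus CV had 9.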
